A study of Mus musculus with 26 samples.

Results

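The genes described here are those whose names follow the mouse nomenclature of cytosolic ribosomal proteins, Rps for the small and Rpl for the large subunit, with Rpsa and the stalk proteins Rplp0, Rplp1 and Rplp2. Of 24421 genes in the count table, 104 names matched the pattern. Leaving out 6 pseudogene names ending in -ps and 10 ribosomal S6 kinase names (Rps6k) gave 88 members, 35 named Rps and 53 named Rpl. All 88 had at least 10 counts over the 26 libraries, and all 88 passed the low-count filter of the test. Rps19bp1, a binding partner of the S19 protein, and Rpl7l1, a relative of L7, match the pattern by name although neither name denotes a core ribosomal protein. The pattern does not reach every ribosomal component. Fau and Rack1, for example, were followed in a list of translation genes.

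RNA was sequenced from mouse embryonic stem cells (ESCs) after 3 days with doxycycline at 2 µg/ml, which switches on the introduced construct. Clones of the Esrrb knockout (ERR beta -/-) expressed wild-type ERR gamma (KO_ERRg_wt), the coactivator-binding deficient ERR beta mutant AF2M6 (KO_ERRb_AF2M6), the TFIIH-binding deficient mutant DBDm6 (KO_ERRb_DBDm6), the DNA-binding deficient mutant DBDm3 (KO_ERRb_DBDm3), wild-type ERR beta (KO_ERRb_wt) or no ectopic receptor (KO_mock). Wild-type cells with no ectopic receptor (WT_mock) completed the design. Doxycycline was given in every group. Each group held 2 clones, and each clone gave 2 libraries, or 1 library for KO_ERRg_wt. A clone is the progeny of 1 picked colony, and the clone was the unit of replication. Because 2 clones a group are few, all 7 groups shared 1 estimate of the spread between clones of a group. The p-values and standard errors of the main fit therefore rest on all 14 clones, not only on the groups compared. Whatever a group's clones came to share cannot be told apart from the construct.

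Cytosolic ribosomes translate nearly all cellular messages, and each mature subunit holds a single copy of almost every ribosomal protein, the stalk proteins apart. Their messages begin with a terminal oligopyrimidine (TOP) tract, through which mTOR and LARP1 adjust their translation together with that of elongation factors. Pluripotent stem cells devote much of their transcription to ribosome production. ERR beta is an orphan nuclear receptor of the naive pluripotency network that binds the response element TNAAGGTCA.

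Library totals ran from 21276790 to 30021667 counts. Esrrb was read at 277 and 276 CPM (counts scaled to the library's total) in the KO_mock clones, against 603 and 560 CPM in the WT_mock clones, and reads of the endogenous gene and of a construct were not separated. The KO_ERRg_wt clones, whose construct encodes no ERR beta, read 477 and 466 CPM, the 6 mutant clones 438 to 553 CPM and the KO_ERRb_wt clones 429 and 410 CPM, so the Esrrb count does not tell the constructs apart. Esrrg, which encodes ERR gamma, stood at 229 and 124 CPM in the KO_ERRg_wt clones and at or below 0.24 CPM in every other clone. Esrra, the third receptor of the family, lay between 24 and 29.7 CPM in all 14 clones. ESC markers summed to 2458 to 2860 CPM per clone, and their 7 genes were all detected. Single markers shifted within that sum. Sox2 had 420 to 553 CPM in the mutant clones and 370 and 404 CPM in KO_ERRg_wt clones. In KO_ERRb_wt, KO_mock and WT_mock clones Sox2 had 222 to 284 CPM. Utf1 had 28.7 to 32.7 CPM in KO_ERRb_DBDm6 and KO_ERRb_AF2M6 clones, against 77.8 and 58.3 CPM in KO_mock clones. Fibroblast markers, 4 of 7 tested, summed to 1.1 to 7.15 CPM. Medians of the other genes of chromosomes 6, 8 and 14 were shifted in some groups, as given below, while no other chromosome's median moved by more than 0.14 on the log2 scale in any comparison. In bulk RNA, a changed number of cells of a type and a changed amount of RNA per cell cannot be told apart.

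The start regions of the members were read from RefSeq promoter windows of build GRCm38.p6, each running from 250 bases before to 50 bases after an annotated start. For 66 of the 88 members a window lay on the chromosome that the counts file gives. The 5 sequences that follow are shown because they carry the start of members described later. Each runs 5′ to 3′ on the gene's strand from 40 bases before the start to 20 bases into the transcript, and capitals mark the longest run of at least 5 pyrimidines that opens with C within 10 bases of the start.
Rps12 (chr10:23787190-23787249, minus strand): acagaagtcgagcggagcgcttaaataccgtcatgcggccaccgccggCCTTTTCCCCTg
Rpl13a (chr7:45128726-45128785, minus strand): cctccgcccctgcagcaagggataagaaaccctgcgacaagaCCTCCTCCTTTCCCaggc
Rpl15 (chr14:18270967-18271026, minus strand): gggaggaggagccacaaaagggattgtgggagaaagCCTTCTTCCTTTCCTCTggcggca
Rps24 (chr14:24490638-24490697, plus strand): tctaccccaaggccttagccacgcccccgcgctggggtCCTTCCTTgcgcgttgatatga
Rpl10l (chr12:66284382-66284441, minus strand): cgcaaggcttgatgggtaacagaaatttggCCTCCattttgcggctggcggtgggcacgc
Such a run was present for 38 of the 66 members (57.6%), against 32.6% of the 27025 genes with a window. Runs that open with T, or open further than 10 bases from the annotated start, were not counted. Rpl7a, for example, counted as having no run although its annotated start lies inside a stretch of pyrimidines that opens with T. The 57.6% is therefore not the share of members with a TOP tract. The 4 members from Rps12 to Rps24 hold runs of 8 to 17 bases, while Rpl10l, the intron-less relative of Rpl10, holds one of 5. The letters CCGGAAG, bound by GABPA, were found on either strand in the windows of 26 of the 66 members (39.4%) and 9.93% of all genes. AAGATGGC, bound by YY1, was found in 6 members (9.09%) and 3.19% of all genes. The core receptor motif AGGTCA occurred in 8 members (12.1%) and 18.1% of all genes.

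The full ERR response element TNAAGGTCA, searched on both strands and holding that core within it, occurred in the windows of 3 members (4.55%), against 1.43% of all genes. The 3 stretches are shown because they are the members' matches to the motif of the receptor under study, with the element in capitals as it reads on the gene's strand.
Rpl10l (chr12:66284565-66284624, minus strand): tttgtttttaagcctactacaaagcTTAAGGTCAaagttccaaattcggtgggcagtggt
Rps3 (chr7:99483884-99483943, minus strand): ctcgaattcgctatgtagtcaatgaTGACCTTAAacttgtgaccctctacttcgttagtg
Rpl24 (chr16:55966025-55966069, plus strand): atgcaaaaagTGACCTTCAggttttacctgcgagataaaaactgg
The element began 198 bases before the start in Rpl10l, 209 in Rps3 and 240 in Rpl24. Only in Rpl10l does it read in the direction of the gene. A match in these letters says nothing about binding.

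Together the members took 7.87% and 7.59% of all counts in the KO_ERRg_wt clones, 8.81% and 8.57% in KO_ERRb_AF2M6, 9.06% and 9.18% in KO_ERRb_DBDm6, and 7.86% and 9% in KO_ERRb_DBDm3. The share was 7.1% and 6.66% in KO_ERRb_wt, 7.2% and 7.32% in KO_mock, and 7.2% and 6.82% in WT_mock. Every clone of the 3 mutant groups and of KO_ERRg_wt lay above all 6 clones of KO_ERRb_wt, KO_mock and WT_mock.

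Levels were compared between members per kilobase of exon, as RPKM averaged over the 14 clones. Rps12, a small-subunit protein, was highest at 4893 RPKM, followed by the large-subunit proteins Rpl32 at 3459, Rpl12 at 3209, the stalk protein Rplp1 at 2966 and Rpl8 at 2710 RPKM. At the other end, Rpl3l, a relative of L3 made mainly in muscle, stood at 0.23 RPKM. Rpl37rt stood at 1.87, Rpl39l at 2.49, Rps19bp1 at 38.3 and Rpl10l at 45.7 RPKM. Multi-mapping reads were left out of the counts, so these are low estimates for genes with near-identical copies, and order among close neighbours carries little weight. Exons of Rps27rt lie wholly within Rps27 and reads were counted for both, so the pair is 1 measurement. Rpl26, Rpl30 and Rpl34 shared 95.8%, 76% and 59.9% of their exonic bases with a same-strand neighbour.

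**Figure D1:**
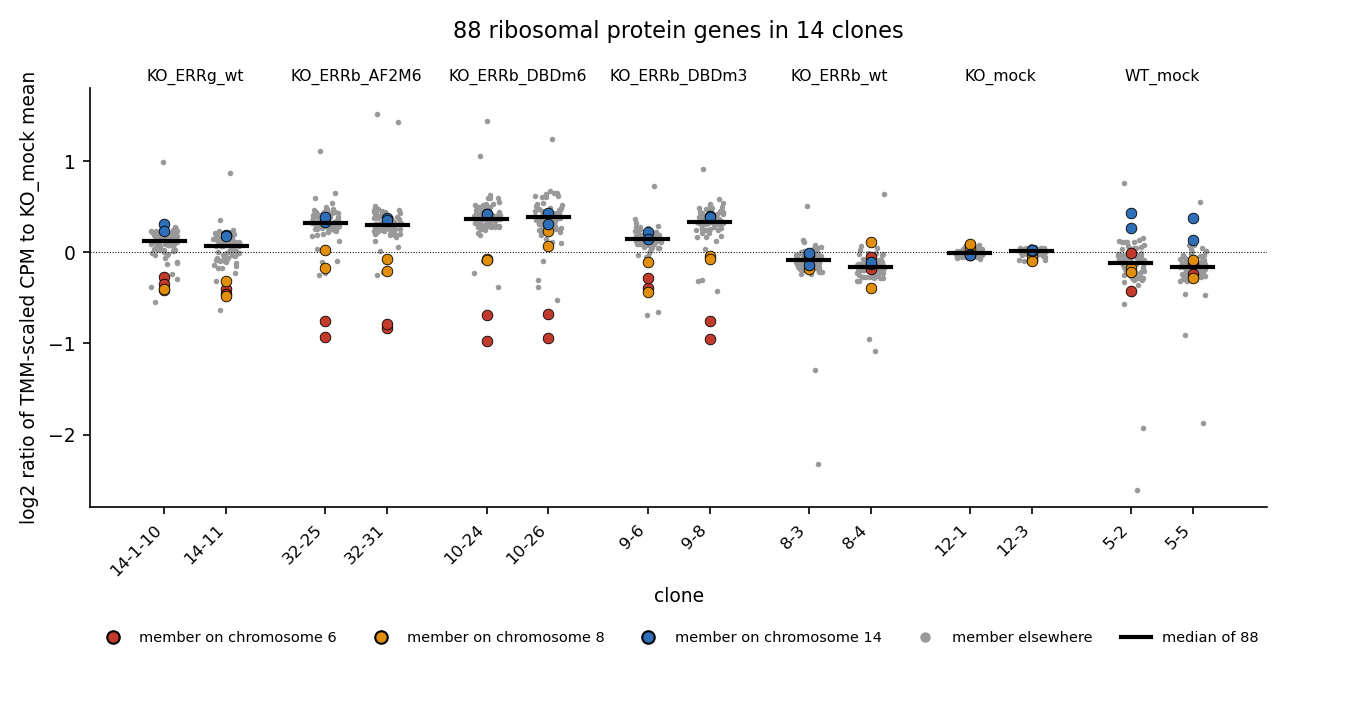
Each point is 1 of the 88 members in 1 clone, placed at the log2 ratio of its TMM-scaled CPM to the mean of the 2 KO_mock clones. The bar is the median of the 88, which reaches 0.38 in clone 10-26 of KO_ERRb_DBDm6 and lies at -0.16 in clone 5-5 of WT_mock, while members on chromosome 6 lie far below the bar in the mutant groups.

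A minority of the members were called higher in KO_mock cells, by small amounts for most. Between KO_mock and WT_mock, 30 members were called higher by edgeR's quasi-likelihood test at a Benjamini-Hochberg adjusted p below 0.05, where 18% of all tested genes were called higher. Only Rps24 was called lower, where 19.4% of all tested genes were. Of the 88 log2 fold changes, 75 were above 0 with a median of 0.14, and the median of all 15238 tested genes was less than 0.01 in size. Calls covered 11 of 35 Rps and 19 of 53 Rpl members, with medians of 0.15 and 0.13. The count fell to between 9 and 16 when any of the 4 clones was left out, and to 16 with library totals alone as scaling. Primitive endoderm markers, all 6 tested, summed to 2.25 to 2.75 CPM in KO_mock clones, against 9.69 to 10.2 CPM in WT_mock clones, and their part in the members' difference was not tested. Gata4 made up most of the WT_mock sum, at 7.41 and 7.38 CPM.

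Rps12 had 2511 and 2470 CPM in the KO_mock clones, against 1813 and 1810 CPM in the WT_mock clones. The groups did not overlap, and the log2 fold change was 0.46 ± 0.08 (SE, n = 2 clones each, adjusted p = 0.00202). The stalk, which recruits elongation factors to the large subunit, was called higher in all 3 genes. Rplp0, its scaffold, had 1786 and 1749 CPM in KO_mock clones, against 1456 and 1418 CPM in WT_mock clones (log2 fold change 0.30 ± 0.06, adjusted p = 0.00243). Rplp1 and Rplp2, which bind to that scaffold, rose by 0.27 and 0.23 on the log2 scale, with adjusted p-values of 0.0191 and 0.0249. Both calls were lost with library totals alone, from the first libraries alone and without clone 5-2 or 12-1, the Rplp1 call also without clone 5-5 and the Rplp2 call without clone 12-3. Rpl37a, a zinc-binding large-subunit protein, rose by 0.32 ± 0.08 (adjusted p = 0.0101), a call lost without clone 5-2 or 12-3. Rpsa, the laminin-receptor homologue of the small subunit, was not called, at 2603 CPM in both KO_mock clones, against 2547 and 2388 CPM in WT_mock clones.

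The largest difference in the set belonged to Rpl10l (mm10 chr12:66283379-66284401, minus strand, 1 exon), a relative of Rpl10 known from the testis. It had 35 and 33.8 CPM in the KO_mock clones, against 9.07 and 9.39 CPM in the WT_mock clones. The log2 fold change was 1.90 ± 0.19 (adjusted p = 0.000155), and the call was kept under every alternative run. Rpl39l, a relative of Rpl39 also known from the testis, had 1.66 and 1.75 CPM in KO_mock clones, against 0.28 and 0.907 CPM in WT_mock clones. Its log2 fold change of 1.53 ± 0.52 was called (adjusted p = 0.0401), but not without clone 5-2, 12-1 or 12-3, nor from the second libraries alone. Rps19bp1 had 38 and 36.5 CPM in KO_mock clones, against 25.2 and 27 CPM in WT_mock clones, a log2 fold change of 0.51 ± 0.11 (adjusted p = 0.00393).

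With wild-type ERR beta put back, the share of members called was close to that of all genes. In KO_ERRb_wt against KO_mock, 1 member was called lower, where 0.781% of all tested genes were, and no member was called higher, where 1.07% of genes were. The member called was Rpl10l, with 14.1 and 16.3 CPM in KO_ERRb_wt clones, against 35 and 33.8 CPM in KO_mock clones. Both KO_ERRb_wt clones lay well under either KO_mock clone (log2 fold change -1.18 ± 0.19, adjusted p = 0.012), and the call was lost without clone 12-1, 12-3 or 8-3. Of the 88 log2 fold changes, 6 were above 0, and the median was -0.13. At an unadjusted p below 0.05, 25 members were lower and 0 higher. DESeq2 called 6 lower and 0 higher. The number called was 9 with only the 2 groups fitted and 12 without the KO_ERRb_DBDm3 group. Shares of all genes under these other settings are not given. The counts of 25, 6, 9 and 12 therefore cannot be set against the 0.781% and 1.07% above. Primitive endoderm markers summed to 5.52 to 6.16 CPM in KO_ERRb_wt clones, against 2.25 to 2.75 CPM in KO_mock clones. Sox7, at 2.45 CPM in both KO_ERRb_wt clones, and Gata4, at 2.81 and 2.07 CPM, made up most of that sum. In KO_mock clones they had 0.205 and 0.13 CPM, and 1.34 and 1.54 CPM. Dab2 went the other way, at 0.241 and 0.148 CPM against 0.273 and 0.454 CPM, and Pdgfra overlapped. Their part in the members' difference was not tested.

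Against WT_mock, KO_ERRb_wt had 2 members called higher, where 4.49% of all genes were, and 2 called lower, where 5.79% were. Rpl10l and Rps19bp1 were the higher pair, with log2 fold changes of 0.72 ± 0.19 (adjusted p = 0.0411) and 0.41 ± 0.11 (adjusted p = 0.0332). The Rpl10l call was lost without any 1 of the 4 clones, and the Rps19bp1 call without clone 5-2, 5-5 or 8-4. Rps24 and Rpl15, the 2 members on chromosome 14, were the lower pair. The median member differed by 0.01, and the 3 stalk genes differed by 0.13 to 0.17 without being called.

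**Figure D2:**
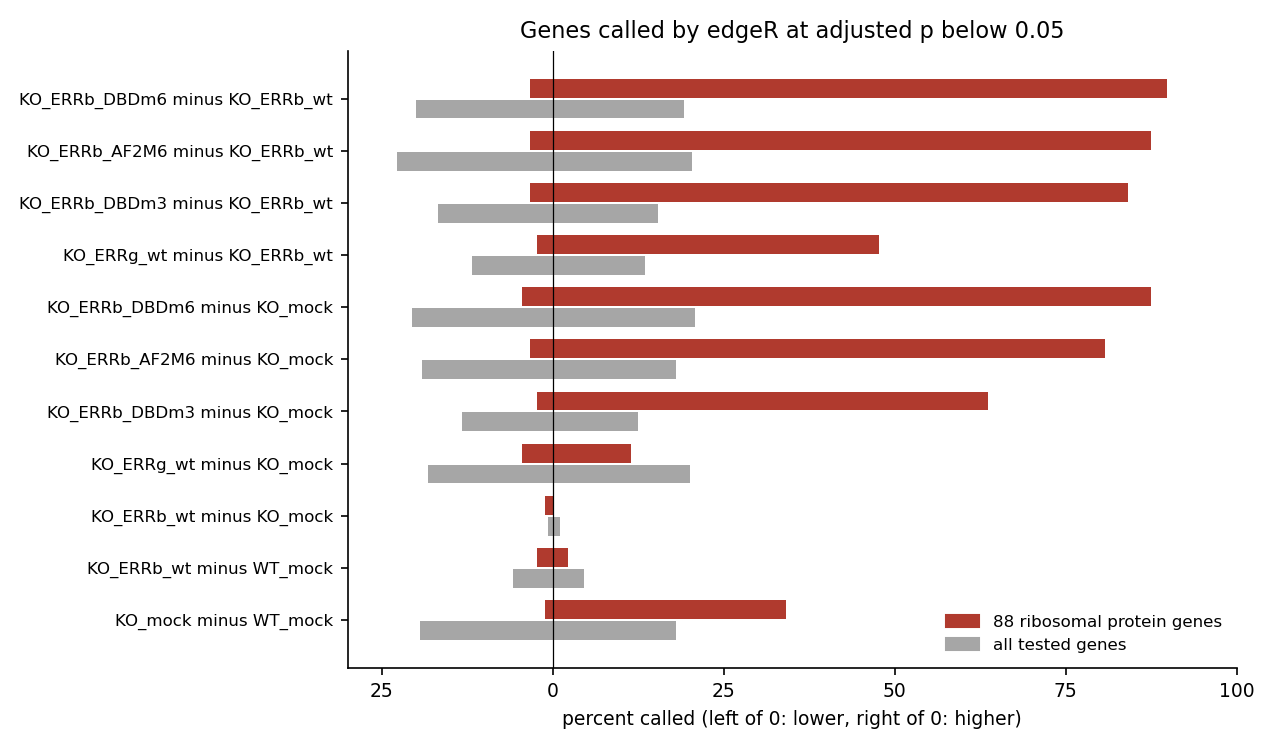
Bars give the percentage of the 88 members and of the 15238 tested genes called higher (right of 0) or lower (left of 0) at an adjusted p below 0.05, for the 11 comparisons. Members called higher reach 79 of 88 in KO_ERRb_DBDm6 minus KO_ERRb_wt, where 19.1% of all genes were called higher.

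The mutant receptors gave the most calls among the members. In KO_ERRb_DBDm6 against KO_mock, 77 members were called higher, where 20.8% of all tested genes were, and 4 were called lower, where 20.6% were. The median member was 0.38 higher on the log2 scale, with quartiles of 0.30 and 0.44, while the quartiles of all tested genes were -0.34 and 0.35. Small-subunit and large-subunit members had medians of 0.37 and 0.39. In KO_ERRb_AF2M6 against KO_mock, 71 members were called higher, where 18% of genes were, and 3 lower, where 19.1% were, with a median of 0.30. The count for KO_ERRb_AF2M6 was 44 without clone 12-1. In KO_ERRb_DBDm3 against KO_mock, 56 were called higher, where 12.4% of genes were, and 2 lower, where 13.3% were, with a median of 0.25. That last total of 58 is less stable, since it was 8 without clone 12-3, 14 without clone 12-1, 18 without clone 9-8 and 1 when only the 2 groups were fitted.

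Against KO_ERRb_wt the differences were larger. KO_ERRb_AF2M6 had 77 members called higher, where 20.3% of all genes were, and 3 lower, where 22.8% were, with a median log2 fold change of 0.43. For KO_ERRb_DBDm6 the numbers were 79 higher, where 19.1% were, and 3 lower, where 20% were, with a median of 0.49. For KO_ERRb_DBDm3 they were 74 higher, where 15.3% were, and 3 lower, where 16.8% were, with a median of 0.38. The KO_ERRb_DBDm3 total of 77 dropped to 3 when only the 2 groups were fitted. These comparisons and those against KO_mock share the mutant clones, so they are not independent.

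Of the 4 trophoblast markers, 3 were tested, and their sum was 107 to 184 CPM in the 6 mutant clones, 73.2 to 88 CPM in KO_ERRg_wt, 34.8 to 37.3 CPM in KO_ERRb_wt, 32.3 to 42.3 CPM in KO_mock and 22.4 to 23.7 CPM in WT_mock. Tfap2c, which ESCs can also express, made up most of the sum, at 104 to 181 CPM in the mutants. Krt7 had 1.66 to 3.92 CPM in the mutant clones and 6.27 CPM in both KO_ERRg_wt clones, against 0.227 and 0.411 CPM in KO_mock clones. Cdx2 and Elf5 stayed at or below 5.55 and 0.0228 CPM in every clone, and Cdx2 had 0.41 to 4.19 CPM in the mutant clones, against 5.55 and 3.46 CPM in KO_mock clones. Primitive endoderm markers summed to 1.57 to 2.46 CPM in the mutant clones and 8.6 to 8.96 CPM in KO_ERRg_wt, against 2.25 to 2.75 CPM in KO_mock clones. Sox7 made up most of the KO_ERRg_wt sum, at 4.95 and 5.01 CPM. Neuroectoderm markers summed to 28.2 to 58.8 CPM in the mutant clones, against 50.5 to 63.6 CPM in KO_mock clones. Tubb3 and Ncam1 made up most of that sum, and the other markers of the list did not move together. Pax6 was higher, at 1.75 to 7.26 CPM in the mutant clones, against 0.341 and 0.736 CPM in KO_mock clones. Sox1 was lower, at 0.132 to 0.281 CPM, against 0.933 and 0.952 CPM. The part of these markers in the members' difference was not tested.

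Members with the largest differences were not confined to 1 subunit. Rpl13a, a large-subunit protein that also takes part in translational silencing in human cells, had 2678 and 2781 CPM in the KO_ERRb_DBDm6 clones and 2682 and 2526 CPM in the KO_ERRb_AF2M6 clones, against 1782 and 1763 CPM in the KO_mock clones. Neither mutant group overlapped KO_mock, and the log2 fold changes were 0.62 ± 0.08 (adjusted p = 0.000143) for KO_ERRb_DBDm6 and 0.55 ± 0.08 (adjusted p = 0.000327) for KO_ERRb_AF2M6. Rps20, a small-subunit head protein, had 1195 and 1262 CPM in KO_ERRb_DBDm6 clones, against 799 and 784 CPM in KO_mock clones (log2 fold change 0.63 ± 0.08, adjusted p = 0.000214). Its values were 1024 and 1188 CPM in KO_ERRb_DBDm3 clones and 1091 and 1090 CPM in KO_ERRb_AF2M6 clones, all above KO_mock. In KO_ERRb_wt clones it had 857 and 745 CPM, a range that includes both KO_mock values.

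Rpl7, which binds RNA in the large subunit, had 2227 and 2151 CPM in KO_ERRb_AF2M6 clones, against 1536 and 1618 CPM in KO_mock clones (log2 fold change 0.47 ± 0.07, adjusted p = 0.000361). Rpl28, a large-subunit protein found in eukaryotes, had 471 and 513 CPM in KO_ERRb_DBDm6 clones, against 312 and 263 CPM in KO_ERRb_wt clones (log2 fold change 0.78 ± 0.11, adjusted p = 0.000359). Rpl17, which lines the exit tunnel, rose by 0.71 ± 0.08 in the same comparison (adjusted p = 7.66e-05). Rps27a, made as a fusion with ubiquitin, rose by 0.40 ± 0.08 in KO_ERRb_DBDm6 against KO_mock (adjusted p = 0.00252). The 3 stalk genes were called higher in all 3 mutants against both KO_mock and KO_ERRb_wt. Their KO_ERRb_DBDm3 calls belong to the totals given above that dropped when only the 2 groups were fitted.

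Fewer members were called in KO_ERRg_wt. Against KO_mock, 10 members were called higher, where 20% of all genes were, and 4 lower, where 18.3% were, so the members' shares were below the background. The median member differed by 0.10. Against KO_ERRb_wt, 42 were called higher, where 13.5% of genes were, and 2 lower, where 11.9% were, with a median of 0.22. Without clone 14-1-10 the second total of 44 was 2, without clone 8-4 it was 5 and without clone 14-11 it was 13. The first total of 14 was 1 to 4 when any of its 4 clones was left out, and 51 when only the 2 groups were fitted. Rpl4, a tunnel-wall protein, had 3760 and 3684 CPM in KO_ERRg_wt clones, against 2959 and 2757 CPM in KO_ERRb_wt clones (log2 fold change 0.38 ± 0.09, adjusted p = 0.0108), a call lost without clone 8-4, 14-1-10 or 14-11. Over all 7 groups, 84 of the 88 members were called by the test of any difference, where 69.6% of all genes were. The 4 not called were Rpl41, Rpl7l1, Rpl37rt and Rps27l, named here after their values were seen.

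Members on chromosomes 6, 8 and 14 departed from the rest. The 2 members on chromosome 6 are Rpl32 (chr6:115805514-115808743, minus strand), a large-subunit protein, and Rps4l (chr6:148354656-148355596, plus strand), a single-exon gene named for its likeness to S4. Rpl32 had 1366 and 1381 CPM in KO_ERRb_DBDm6 clones and 1302 and 1241 CPM in KO_ERRb_AF2M6 clones, against 2157 and 2247 CPM in KO_mock clones. Both mutant groups lay well under KO_mock, with log2 fold changes of -0.68 ± 0.10 (adjusted p = 0.000413) for KO_ERRb_DBDm6 and -0.79 ± 0.10 (adjusted p = 0.000193) for KO_ERRb_AF2M6. Rps4l had 501 and 516 CPM in KO_ERRb_DBDm6 clones, against 1046 and 929 CPM in KO_mock clones (log2 fold change -0.96 ± 0.16, adjusted p = 0.00101). The median of the other tested genes of chromosome 6 was -0.93 in KO_ERRb_DBDm6 and -0.96 in KO_ERRb_AF2M6 against KO_mock. Set against that median, Rpl32 was 0.25 and 0.17 higher in the 2 groups.

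The 2 clones of KO_ERRb_DBDm3 differed here. Rpl32 had 1684 CPM in clone 9-6 and 1302 CPM in clone 9-8, and Rps4l had 814 and 512 CPM. Other genes of chromosome 6 had a median log2 ratio to KO_mock of -0.41 in clone 9-6 and -0.93 in clone 9-8. The median of the 88 members in the same clones was 0.14 in clone 9-6 and 0.34 in clone 9-8.

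The same 2 medians can be read in every clone. In the KO_ERRg_wt clones, chromosome 6 lay at -0.37 and -0.38, and the members at 0.12 and 0.07. In the 4 clones of KO_ERRb_AF2M6 and KO_ERRb_DBDm6, chromosome 6 lay between -0.97 and -0.94, and the members between 0.29 and 0.38. In the 6 clones of KO_ERRb_wt, KO_mock and WT_mock, chromosome 6 lay between -0.02 and 0.01, and the members between -0.16 and 0.01. Chromosome 8 lay between -0.55 and -0.46 in the 8 clones of the mutants and KO_ERRg_wt, clones 9-6 and 9-8 both at -0.54, and between -0.02 and 0.02 in the other 6. The part of either chromosome's level in the members' difference was not tested. Chromosome 8 follows the groups throughout, so it cannot be told apart from the construct. Chromosome 6 follows them too, except within KO_ERRb_DBDm3, where clones 9-6 and 9-8 carry the same construct and differ in both medians. That is 1 pair of clones, and between groups chromosome 6 cannot be told apart from the construct either.

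**Figure D3:**
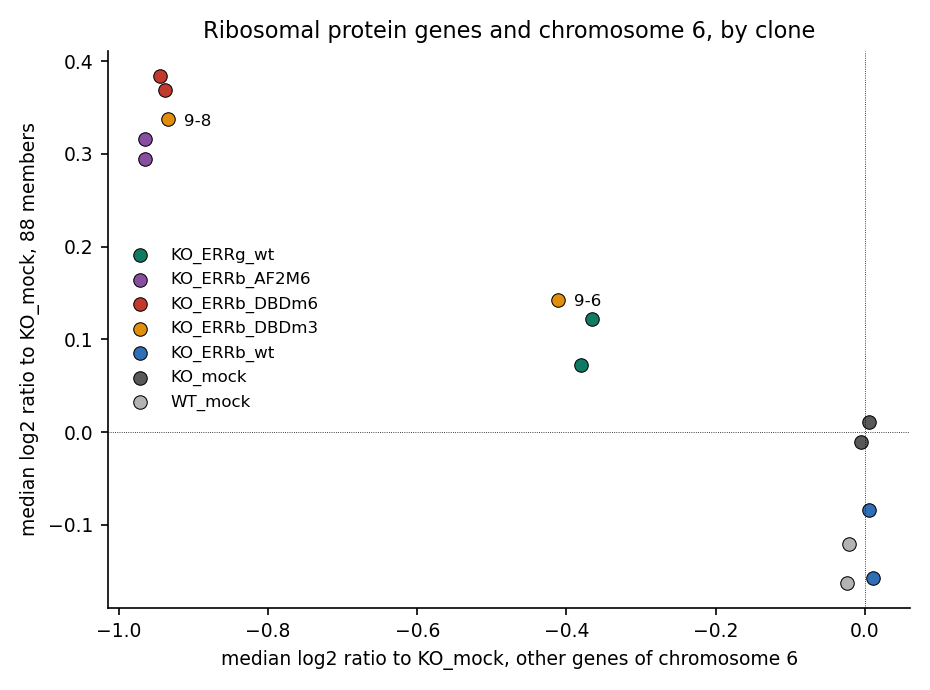
Each point is 1 of the 14 clones. The x axis gives the median log2 ratio to KO_mock of the other tested genes of chromosome 6, and the y axis that of the 88 members. Clones at about -0.9 on x have member medians of 0.29 to 0.38, and clones 9-6, 14-1-10 and 14-11, at about -0.4, have 0.07 to 0.14.

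On chromosome 8, Rpl13 (chr8:123102350-123105242, plus strand), a large-subunit protein, showed another pattern. Rpl13 had 857 and 1066 CPM in KO_ERRb_DBDm6 clones, against 965 and 846 CPM in KO_mock clones, and the groups overlapped (log2 fold change 0.09 ± 0.10, adjusted p = 0.526). The median of the other genes of chromosome 8 was -0.49 in that comparison, so Rpl13 stood 0.58 above it. Members on chromosomes other than 6, 8 and 14 stood 0.34 above their own chromosome's median. In KO_ERRg_wt against KO_mock, where that chromosome's median was -0.53, Rpl13 was called lower. It had 686 and 728 CPM in KO_ERRg_wt clones, against 965 and 846 CPM in KO_mock clones (log2 fold change -0.36 ± 0.10, adjusted p = 0.0172). The call was lost when clone 12-1, 14-1-10 or 14-11 was left out.

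Rps24 (chr14:24490681-24496146, plus strand), a small-subunit protein mutated in human Diamond-Blackfan anaemia, was the member called lower in KO_mock against WT_mock. It had 1434 and 1490 CPM in KO_mock clones, against 1964 and 1897 CPM in WT_mock clones (log2 fold change -0.40 ± 0.07, adjusted p = 0.0019). Rpl15 (chr14:18267823-18270986, minus strand), of the large subunit, had 286 and 293 CPM in KO_mock clones, against 349 and 319 CPM in WT_mock clones (log2 fold change -0.21 ± 0.08, adjusted p = 0.0569). Neither gene's groups overlapped, and the median of the other genes of chromosome 14 was -0.61. In KO_ERRb_wt against WT_mock, where that median was -0.56, Rps24 fell by 0.52 and Rpl15 by 0.28. In the mutants against KO_mock both were called higher, by 0.27 to 0.42, with the chromosome's median between 0.05 and 0.06. In KO_ERRb_DBDm3 both calls were lost without clone 12-1, 12-3 or 9-8.

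**Figure D4:**
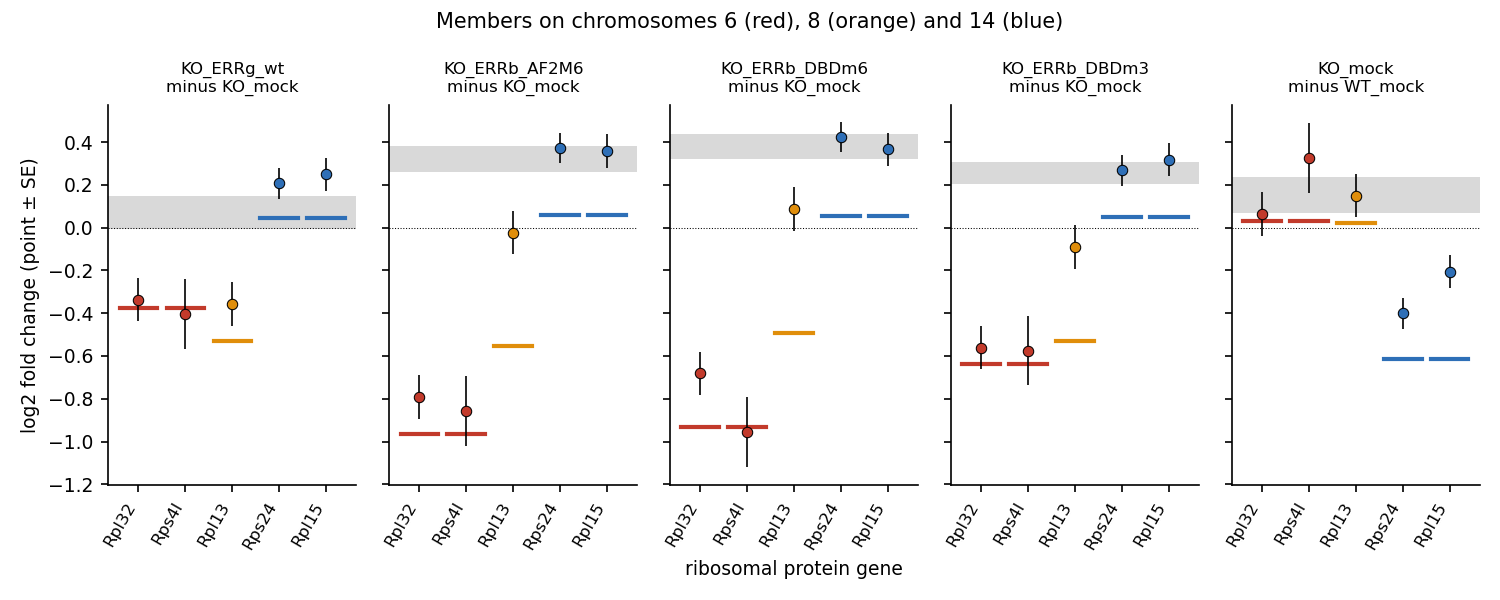
Points give the log2 fold change ± SE of 5 members on chromosomes 6 (red), 8 (orange) and 14 (blue) in 5 comparisons, coloured lines the median of the other genes of that chromosome, and the grey band the quartiles of the 82 members elsewhere. The point for Rpl13 on chromosome 8 sits above its line in every mutant panel, by 0.53 in KO_ERRb_AF2M6 minus KO_mock.

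Rpl10l varied most among the members at more than 1 CPM in every clone. It had 68.3 and 62.9 CPM in KO_ERRg_wt clones, 74.1 and 92.9 in KO_ERRb_AF2M6, 71.8 and 45 in KO_ERRb_DBDm6, and 56.8 and 65 in KO_ERRb_DBDm3. In KO_ERRb_wt it had 14.1 and 16.3 CPM, in KO_mock 35 and 33.8, and in WT_mock 9.07 and 9.39. The mutant and KO_ERRg_wt clones all lay above KO_mock, KO_mock above KO_ERRb_wt, and KO_ERRb_wt above WT_mock. Log2 fold changes against KO_ERRb_wt were 2.11 ± 0.19 for KO_ERRg_wt (adjusted p = 6.22e-05), 2.46 ± 0.19 for KO_ERRb_AF2M6 (adjusted p = 1.44e-05), 1.94 ± 0.19 for KO_ERRb_DBDm6 (adjusted p = 3.83e-05) and 2.00 ± 0.19 for KO_ERRb_DBDm3 (adjusted p = 8.16e-05). These 4 calls held under every alternative run. Against KO_mock the differences were 0.93, 1.28, 0.76 and 0.82 in the same order of groups, and the KO_ERRb_DBDm6 call was lost without clone 10-24 or with only the 2 groups fitted, and the KO_ERRb_DBDm3 call without clone 12-3 or 9-8.

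Rpl10 on chromosome X, which joins the large subunit late in its assembly, ranged only from 554 CPM in a WT_mock clone to 851 CPM in a KO_ERRb_DBDm3 clone. Rpl39l reached 2.68 and 4.87 CPM in KO_ERRb_AF2M6 clones and 4.63 and 4.05 in KO_ERRb_DBDm6 clones, against 0.341 and 0.885 CPM in KO_ERRb_wt clones. The log2 fold changes were 2.62 ± 0.51 (adjusted p = 0.00196) and 2.82 ± 0.51 (adjusted p = 0.00139). In KO_ERRb_DBDm3 clones it had 1.08 and 1.75 CPM and was not called against KO_ERRb_wt (adjusted p = 0.102). Rpl39 itself lay between 337 and 453 CPM in all clones.

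**Figure D5:**
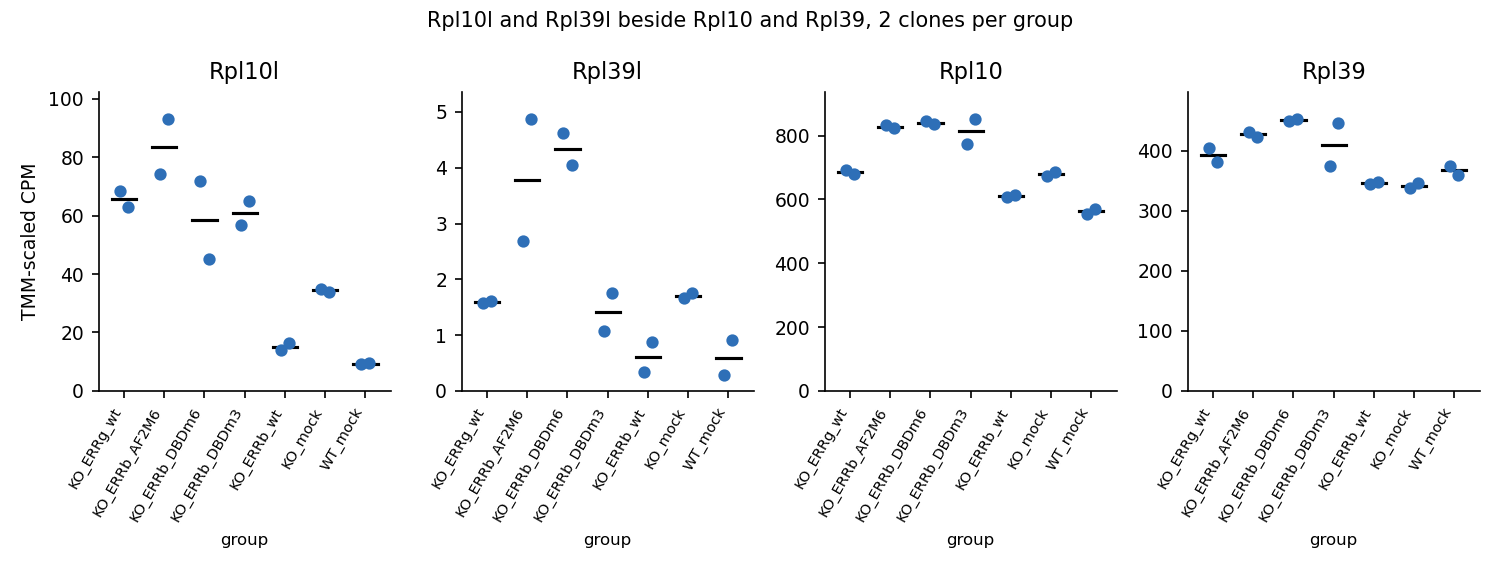
TMM-scaled CPM of Rpl10l, Rpl39l, Rpl10 and Rpl39 in the 2 clones (points) and their mean (line) of each group. Rpl10l is at 45 CPM or more in the 8 mutant and KO_ERRg_wt clones and at 9.07 to 35 CPM in the other 6, whereas Rpl10 and Rpl39 vary far less in proportion.

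Among the other relatives, Rpl22l1 (related to Rpl22) had 95.2 and 71.4 CPM in KO_ERRb_DBDm6 clones and 89.2 and 84.9 in KO_ERRb_AF2M6 clones, against 59.2 and 63.6 CPM in KO_mock clones. It was called higher in both, by 0.44 ± 0.11 (adjusted p = 0.00996) and 0.50 ± 0.11 (adjusted p = 0.00541), and both calls were lost without clone 12-1, the KO_ERRb_DBDm6 call also without clone 10-24. Rpl36al, related to Rpl36a, had 86.5 and 79.7 CPM in KO_ERRb_DBDm6 clones, against 61.2 and 62 CPM in KO_mock clones (log2 fold change 0.43 ± 0.07, adjusted p = 0.000594). Rps27l, related to Rps27 and known as a p53 target, was called in none of the 11 comparisons. It had 244 CPM in both KO_ERRb_DBDm6 clones, against 257 and 265 CPM in KO_mock clones. Rps27rt moved as Rps27 does, whose reads it shares.

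The 2 members that are not core ribosomal proteins were called lower in KO_ERRb_DBDm6. Rpl7l1 had 336 and 318 CPM in KO_ERRb_DBDm6 clones, against 392 and 394 CPM in KO_mock clones (log2 fold change -0.27 ± 0.08, adjusted p = 0.0217). The call was lost without any 1 of the 4 clones and from the first libraries alone. Rps19bp1 had 28.7 and 25.9 CPM in KO_ERRb_DBDm6 clones, against 38 and 36.5 CPM in KO_mock clones (log2 fold change -0.45 ± 0.11, adjusted p = 0.00604), and its call was lost without clone 10-26. In KO_ERRb_AF2M6 against KO_mock Rpl7l1 was called (adjusted p = 0.0386) and Rps19bp1 was not (adjusted p = 0.105), and in KO_ERRb_DBDm3 neither was. Rpl3l was below 0.65 CPM in every clone and was called lower in 3 comparisons against KO_ERRb_wt, with log2 fold changes between -1.15 and -0.98. DESeq2 made none of those 3 calls.

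Translation genes with known TOP tracts were also mostly called higher in the mutants. Of 26 listed, 18 were called higher and 0 lower in KO_ERRb_DBDm6 against KO_mock, where 20.8% and 20.6% of all tested genes were, with a median log2 fold change of 0.35. In KO_ERRb_AF2M6 22 were higher and 1 lower, where 18% and 19.1% of genes were, and in KO_ERRb_DBDm3 17 and 0, where 12.4% and 13.3% were. The 3 higher and 2 lower in KO_ERRg_wt against KO_mock were below the 20% and 18.3% of all genes. Against KO_ERRb_wt, those called higher in KO_ERRg_wt were Eef1a1, Eif3e, Pabpc1, Tpt1, Rack1, Fau, Btf3, Impdh2 and Ybx1. No listed TOP gene was called lower in that comparison, where 13.5% of all genes were called higher and 11.9% lower. Between KO_mock and WT_mock the test called 11 higher and 1 lower, where 18% and 19.4% of genes were, and between KO_ERRb_wt and KO_mock none was called. Eef2, the translocation factor, had 5231 and 5363 CPM in KO_ERRb_DBDm6 clones, against 3642 and 3524 CPM in KO_mock clones (log2 fold change 0.56 ± 0.09, adjusted p = 0.000693). Fau, which encodes the S30 protein, had 407 and 419 CPM in the same clones, against 303 and 287 CPM in KO_mock clones. Rack1, a scaffold on the small subunit listed in the file as Gnb2l1, rose by 0.51 ± 0.08 (adjusted p = 0.000591). Non-member genes of at most 1000 exonic bases, 1521 in number, had medians between -0.06 and 0.08 in all 11 comparisons.

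The other lists are read against the 20.8% of all tested genes called higher and 20.6% called lower in KO_ERRb_DBDm6 against KO_mock. Of 11 chaperones and importers of ribosomal proteins, 2 were called higher and 4 lower. Between KO_mock and WT_mock the test called 7 higher and 1 lower, where 18% and 19.4% of genes were. Heatr3, an importer of L5 that lies on chromosome 8, had 91 and 89.3 CPM in KO_ERRb_DBDm6 clones, against 176 and 186 CPM in KO_mock clones (log2 fold change -1.01 ± 0.09, adjusted p = 1.55e-05). Of 15 snoRNA host genes, whose introns encode guides for rRNA modification, 6 were called higher and 1 lower in KO_ERRb_DBDm6, and 8 higher and 0 lower in KO_ERRb_AF2M6, where 18% and 19.1% of genes were. Eef2, Eef1b2 and Rack1 stand in both this list and the TOP list. Of 15 regulators of these genes, 1 was called higher and 2 lower in KO_ERRb_DBDm6, both below the shares of all genes. In KO_mock against WT_mock 9 regulators were called higher and 0 lower, where 18% and 19.4% of genes were.

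Myc, a transcription factor that promotes ribosome production, had 1.63 and 1.14 CPM in KO_ERRb_DBDm6 clones, against 10.8 and 10.6 CPM in KO_mock clones (log2 fold change -2.95 ± 0.39, adjusted p = 0.000219). It had 3.05 and 2.01 CPM in KO_ERRg_wt, 2.94 and 2.83 in KO_ERRb_AF2M6 and 4.63 and 2.75 in KO_ERRb_DBDm3 clones. All were called lower than KO_mock, and KO_mock was called higher than WT_mock, where Myc had 2.72 and 5.77 CPM. Its relative Mycn was at 221 and 223 CPM in KO_ERRb_AF2M6 clones and 243 and 234 in KO_ERRb_DBDm3 clones, against 166 and 143 CPM in KO_mock clones. Mycn was called higher in both groups. In KO_ERRb_DBDm6 against KO_mock it was not called (log2 fold change 0.35 ± 0.13, adjusted p = 0.0502). In KO_ERRg_wt against KO_mock it was called lower (log2 fold change -0.75 ± 0.13, adjusted p = 0.00138).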

How the data were processed

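Per the submitters' processing notes, alignment to mm10 used STAR, version 2.7.8a. The deposited integer counts per gene came from featureCounts (the notes give version 2.0.10, and per the file headers it was 2.0.1) over exons on the reverse strand, with reads in overlapping genes counted for each, per the file headers. Exonic length per gene was deposited beside the counts. All 26 count columns were used.

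Counts of a clone's libraries were summed, giving 25103562 to 54105869 counts per clone. edgeR (version 4.0.16, R version 4.3.3) with filterByExpr, TMM factors and a robust quasi-likelihood fit tested 15238 genes over all 14 clones in 1 model, with Benjamini-Hochberg adjustment over all of them. Standard errors were derived by dividing each log2 fold change, unsigned, by the root of its F statistic. CPM uses TMM-scaled totals and RPKM divides it by exonic kilobases. The fit was tested on simulated data. Library totals, RLE factors, TMM without chromosomes 6, 8 and 14, no filter, DESeq2 (version 1.42.0), fits of 2 groups, single libraries and clones left out were alternatives.

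Members and lists were chosen with earlier results of these data known. Named by rule were, per comparison, up to 5 highest and 5 lowest called members whose mean log2 CPM reached 1, and always members on chromosomes 6, 8 and 14, paralogs, stalk genes, Rpsa, Rps27a, Rps19bp1 and the 5 highest and 5 lowest by RPKM. Listed genes outside the set, Rpl10, Rpl39 and some members beyond the rule were named after their values were seen. Of the listed genes, 3 were matched through older symbols. Results for some members and listed genes are not reported here.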

Additional observations from a re-analysis of the deposited data

How the results depend on the processing

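The counts of called members in KO_ERRb_DBDm6 and KO_ERRb_AF2M6 comparisons stayed within 1.5 times under all alternatives, except 44 (of 74) for KO_ERRb_AF2M6 against KO_mock without clone 12-1. Leaving out 1 clone gave 9 to 16 calls for KO_mock against WT_mock (31), 0 to 1 for KO_ERRb_wt against KO_mock (1), 1 to 2 for KO_ERRb_wt against WT_mock (4), 8 to 79 for KO_ERRb_DBDm3 against KO_mock (58), 44 to 63 for KO_ERRb_AF2M6 against KO_mock, 1 to 4 for KO_ERRg_wt against KO_mock (14) and 2 to 31 for KO_ERRg_wt against KO_ERRb_wt (44). With library totals alone, KO_mock against WT_mock had 16 and KO_ERRg_wt against KO_ERRb_wt 26. Fitting only the 2 groups gave 9 for KO_ERRb_wt against KO_mock, 51 for KO_ERRg_wt against KO_mock, and 1 and 3 for KO_ERRb_DBDm3 against KO_mock and KO_ERRb_wt. The second libraries alone gave 1 for KO_ERRb_wt against WT_mock, 33 for KO_ERRb_DBDm3 against KO_mock, 7 for KO_ERRg_wt against KO_mock and 24 for KO_ERRg_wt against KO_ERRb_wt. TMM without chromosomes 6, 8 and 14 gave 8 for KO_ERRg_wt against KO_mock, and DESeq2 gave 6 for KO_ERRb_wt against KO_mock. A fit without the KO_ERRb_DBDm3 group, chosen after seeing the data because its clones lie apart, gave 12 for KO_ERRb_wt against KO_mock, 9 for KO_ERRb_wt against WT_mock and 32 for KO_ERRg_wt against KO_mock. The cause of these differences was not tested. Shares of all genes under the alternatives are not given, so these counts describe only how stable the member calls were. Without Rn45s and chromosomes 6, 8 and 14, the members' mean share of counts was 8.54% in KO_ERRg_wt, 9.53% in KO_ERRb_AF2M6, 9.99% in KO_ERRb_DBDm6, 9.33% in KO_ERRb_DBDm3, 7.79% in KO_ERRb_wt, 8.2% in KO_mock and 7.97% in WT_mock.

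For 161 fold changes of named called members, 1788 of 2056 alternative values kept the call, 268 lost it and 0 changed sign. No scaling moved the median of all genes by more than 0.09. No paired analysis was possible because the replicate numbers mark the 2 libraries of 1 clone, which were summed, and clones of different groups share no number. With 2 clones per group, small differences in single members were often not detectable.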
